A study of Drosophila melanogaster with 96 samples.

Results

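Adult virgin females of the Drosophila melanogaster laboratory strain w1118 that had fed for 4 h after a fast were compared with females taken at the end of the fast, before any food was returned. The comparison used 24 of the 96 libraries of the series, 12 females at 4 h and 12 at 0 h, chosen by the sex and time in the sample titles. All flies were 3 days old. They had eaten a chemically defined liquid food of 400 kcal per litre for 24 h, 1 fly to a well, and were then starved for 6 h on buffered saline. The 4 h females then got this food back, now dyed and with dimethyl sulfoxide (DMSO), a drug solvent, at 4 levels (none, 0.1%, 0.2% and 0.4%, with 3 flies each). The 0 h females were assigned to the same 4 levels but had not yet eaten any of it. Each library held the polyadenylated RNA of the whole body of 1 fly, read on 1 strand, and all 24 came from 1 sequencing run. Each time had its own plate, so plate, clock time and hours of feeding cannot be told apart. In whole bodies, fewer cells of a type and less RNA per cell cannot be told apart.

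A fasting fly draws on triglyceride in its fat body through lipases such as brummer (bmm), burns fatty acids in mitochondria, and keeps the transcription factors foxo and REPTOR active because insulin and TOR signals are low. Feeding brings sugar and amino acids to the gut and blood, raises insulin and TOR signals, turns off the fasting lipases and sugar-repressed digestive enzymes, and supplies yolk and egg production in the ovary. Much of this control acts on proteins rather than on transcript levels.

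Gene counts per library ran from 2955698 to 7309948 at 4 h and from 2797283 to 7748816 at 0 h, so 3 counts equalled 0.387 to 1.07 CPM (counts scaled by library size). CPM values here are adjusted with edgeR's TMM factors and are shares of a library, so they carry no information on the total RNA of a fly. Spike-in transcripts took 0.23 to 0.489% of all counts at 4 h, against 1.54 to 3.12% at 0 h, with no overlap between the times. Females at 2 h and 8 h had 0.172 to 0.428% and 0.208 to 0.544%, so the fasted females were the ones that differed. Males on the foods with DMSO had 0.2 to 0.849% at 4 h and 2.24 to 4.8% at 0 h. Ribosomal RNA took a median of 19.8% of gene counts at 4 h (11.9 to 41.8%), against 16% at 0 h (6.74 to 18.5%). The part of the spike-in and ribosomal RNA shares in the results was not tested. A few flies stood apart. The summed antimicrobial peptide transcripts of 1 female at 0 h (food without DMSO, replicate 1) came to 27892 CPM, against a median of 571 over all 0 h females, and the count of called genes below is also given without that fly. At 4 h, replicate 2 on 0.4% DMSO had the highest muscle sum (54417 CPM) and the lowest female germline sum (2166 CPM). Replicate 3 on 0.2% at 4 h had little yolk protein transcript (Yp1 at 112 CPM, against a 4 h median of 5136 CPM) and the highest antimicrobial peptide sum of that time (5480 CPM).

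After 4 h of feeding, 1 gene of 9833 tested was higher than in fasted females and 0 were lower at an adjusted p of 0.05, which is 0.0102% of the genes (quasi-likelihood test of edgeR, adjusted by Benjamini-Hochberg, 12 flies against 12, DMSO level as a factor). Without the 0 h fly that stood apart it was also 1 of 9952, or 0.01%, and 1357 genes were higher (13.6%) and 564 lower (5.67%) at an unadjusted p under 0.05, 1921 in all (19.3%). DESeq2 with the same design called 289 genes, 221 higher (2.25%) and 68 lower (0.692%), or 2.94% in all. With all flies, 1563 genes had an unadjusted p under 0.05 (15.9%), of which 1118 were higher (11.4%) and 445 lower (4.53%). Counts of list members at that level below are to be read against these shares. The median standard error (SE) of a log2 change was 0.181, and the 95% interval stayed inside 1 log2 unit of 0 for 78.6% of genes.

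The gene was Sec61beta (FBgn0010638), which encodes the small subunit of the channel that carries new proteins into the endoplasmic reticulum. Its level ran over 130, 145 and 189 CPM (lowest, median and highest) in the refed females, against 90.2, 108 and 120 CPM in the fasted ones. Every 4 h fly lay above every 0 h fly, which held for this gene alone of the 9833 (0.0102%), and no gene had every 4 h fly below every 0 h fly. Means were 154 ± 20.9 CPM at 4 h and 107 ± 10.7 CPM at 0 h (SD, n = 12 each). The log2 change was 0.52 (SE 0.08, adjusted p = 0.0213, edgeR), or 1.43-fold, and it was 0.54 without the 0 h fly that stood apart (adjusted p = 0.024). The call was lost on leaving out any of 10 of the 24 flies (refed replicates 2 and 3 on 0.1% DMSO, 3 on 0.2% and 3 on 0.4%, and fasted replicates 2 without DMSO, 1 and 3 on 0.1%, 1 and 2 on 0.2% and 2 on 0.4%), with adjusted p between 0.0517 and 0.0742 and log2 changes between 0.49 and 0.53. Another part of the same machinery, SsRbeta, a subunit of the complex that binds signal sequences at the channel, averaged 143 ± 19.9 CPM at 4 h and 115 ± 18.6 CPM at 0 h (SD, n = 12 each), with a log2 change of 0.32 (SE 0.10, adjusted p = 0.128, edgeR). Of 19 genes of endoplasmic reticulum folding and import tested, 7 were higher and 1 lower at an unadjusted p under 0.05, against 11.4% and 4.53% of all genes. The median log2 change of the 19 was 0.18, against -0.01 over all genes. Without the 0 h fly that stood apart 9 were higher, and without the fasted replicate 3 on food without DMSO 5 were. The lower one was prtp, a gene of the protein disulfide isomerase family, at 80.4 ± 12 CPM at 4 h and 96.1 ± 8.13 CPM at 0 h (log2 change -0.26).

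**Figure D1:**
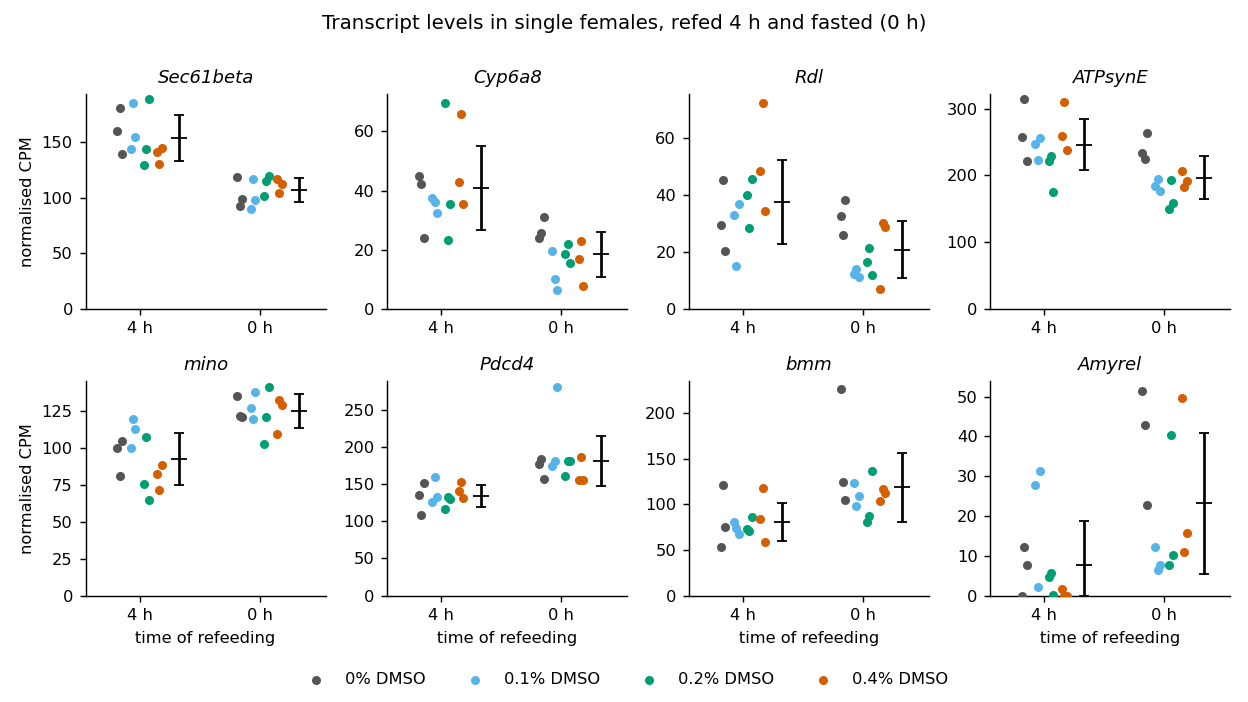
Normalised CPM of 8 genes in each female at 4 h (left) and 0 h (right), coloured by the DMSO level of the food, with the mean and SD of 12 flies. For Sec61beta the 12 refed flies lay above all 12 fasted ones; for the other 7 genes the times overlapped.

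No other gene passed, and the genes nearest to the threshold on the higher side were of several kinds. Cyp6a8, a cytochrome P450, ran over 23.3, 36.7 and 69.6 CPM at 4 h, against 6.41, 19.0 and 31.1 CPM at 0 h. Of the 12 refed females, 10 exceeded the highest fasted one. Its log2 change was 1.20 (SE 0.23) with an adjusted p of 0.0807 (edgeR, 12 flies against 12). Next by p were dpr19, a gene of the Dpr family of neuronal surface proteins, CG5281, CG40498, GABA-B-R2, a receptor for the inhibitory transmitter GABA, the precursor ribosomal RNA gene pre-rRNA:CR45856, lncRNA:mimi, the membrane protease Tace and the pseudogene 28SrRNA-Psi:CR45859. Their log2 changes lay between 0.84 and 1.09, each with an adjusted p of 0.102. GABA-B-R2, for example, averaged 35.6 ± 12.5 CPM at 4 h and 20.6 ± 7.50 CPM at 0 h (SD, n = 12 each). Reads that align equally well to nearly identical ribosomal RNA copies cannot be assigned to 1 of them. The values of both ribosomal RNA genes are uncertain to that extent. Of 7 ribosomal RNA genes tested, 6 were higher and 0 lower at an unadjusted p under 0.05, with a median log2 change of 0.96, and 6 to 8 were on leaving out each fly.

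The nearest genes on the lower side differed by less in size but also by less between flies. The log2 change of mrva was -0.40 (SE 0.08), that of mino, a glycerol-3-phosphate acyltransferase of triglyceride and phospholipid synthesis, was -0.44 (SE 0.09), and that of Pdcd4, an inhibitor of translation initiation, was -0.42 (SE 0.09). Pdcd4 ran over 108, 132 and 159 CPM at 4 h, against 155, 179 and 280 CPM at 0 h. Of the 12 refed females, 11 lay below the lowest fasted one for Pdcd4. The same number did so for Prps, which makes the ribose phosphate donor of nucleotide synthesis, and for the RNA helicase gene Ddx56. Glutamine synthetase 1 (Gs1) averaged 134 ± 22.8 CPM at 4 h and 181 ± 31.0 CPM at 0 h (SD, n = 12 each). CG3376, Ypel, S6KL, a kinase resembling S6 kinase, and Paip2, which in mammals holds back poly(A)-binding protein, completed the 10. Adjusted p-values of the 10 were 0.102 to 0.103 (edgeR), and their log2 changes lay between -0.46 and -0.33.

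Of 16 genes of fat mobilisation and fasting lipases tested, none was called, and the median log2 change was -0.40. At an unadjusted p under 0.05, 5 were lower (31.25%) and 0 higher, against 4.53% and 11.4% of all genes. The triglyceride lipase bmm ran over 52.8, 74.3 and 121 CPM at 4 h, against 80.3, 111 and 226 CPM at 0 h. For bmm, 7 of 12 refed females lay below the lowest fasted one, and the 2 groups overlapped. The log2 change was -0.55 (SE 0.15, adjusted p = 0.111, edgeR). The lipase genes CG5966 and CG6277 had larger differences and wider spread. CG5966 averaged 29.1 ± 25.1 CPM at 4 h and 71.3 ± 46.2 CPM at 0 h (SD, n = 12 each; log2 change -1.36, adjusted p = 0.11, edgeR). CG6277 averaged 12.1 ± 17.8 CPM at 4 h and 72.1 ± 92.3 CPM at 0 h (SD, n = 12 each; adjusted p = 0.17, edgeR). The summed level of the lipase list ran over 625, 1488 and 1842 CPM at 4 h, against 1087, 1345 and 2296 CPM at 0 h, and 4 refed flies lay below all fasted ones. The count of lower members was 4 to 7 on leaving out each fly. The starvation lipase Lip3 had a median of 0.208 CPM at 4 h and 1.40 CPM at 0 h, which is near the level of 3 counts. AkhR, the receptor of the fasting hormone adipokinetic hormone, averaged 9.52 ± 4.96 CPM at 4 h and 10.6 ± 6.02 CPM at 0 h (SD, n = 12 each).

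Genes of fatty acid oxidation and the fasting fuel switch had 5 lower members and 1 higher member of 16 at an unadjusted p under 0.05, with a median log2 change of -0.22. Over all genes 4.53% were lower and 11.4% higher. The medium-chain acyl-CoA dehydrogenase gene Mcad averaged 286 ± 79.8 CPM at 4 h and 364 ± 59.9 CPM at 0 h, and 8 of the 12 refed flies lay below the lowest fasted one. The mitochondrial aspartate aminotransferase gene Got2 averaged 420 ± 106 CPM at 4 h and 533 ± 107 CPM at 0 h. CPT2, which passes fatty acids into mitochondrial oxidation, averaged 48.7 ± 9.54 CPM at 4 h and 57.9 ± 7.83 CPM at 0 h (SD, n = 12 each for these genes). Adjusted p-values of the 3 genes were 0.166 to 0.2 (edgeR). The gluconeogenic Pepck1 had 0 counts in all 24 flies.

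Among 21 genes of FOXO and insulin signalling, 2 were higher and 1 lower at an unadjusted p under 0.05 (median log2 change -0.13), and 4 were lower without the 0 h fly that stood apart and 5 without the refed replicate 3 on 0.2% DMSO. With all flies the shares were 9.52% higher and 4.76% lower, near the 11.4% and 4.53% of all genes. foxo itself averaged 49.5 ± 8.00 CPM at 4 h and 61.3 ± 7.73 CPM at 0 h (SD, n = 12 each; log2 change -0.31, adjusted p = 0.128, edgeR). The brain insulin gene Ilp2 averaged 12.7 ± 3.54 CPM at 4 h and 9.78 ± 3.25 CPM at 0 h (log2 change 0.41, adjusted p = 0.132, edgeR, n = 12 each). The textbook FOXO targets did not separate the times. Thor, the 4E-BP translation inhibitor, averaged 322 ± 235 CPM at 4 h and 348 ± 138 CPM at 0 h, and the insulin receptor InR averaged 32.3 ± 24.9 CPM at 4 h and 32.7 ± 5.17 CPM at 0 h. InR reached 110 CPM in 1 refed fly, replicate 3 on 0.2% DMSO, which raised the mean at 4 h, and 11 of 12 refed flies lay below the median of the fasted ones. For 21 REPTOR, TOR and autophagy genes, 5 were lower (23.8%, against 4.53% of all genes) and 0 higher at an unadjusted p under 0.05. The median log2 change was -0.18. Without the refed replicate 2 on food without DMSO 3 were lower, and without the refed replicate 3 on 0.4% 8 were. One of these, CG6770, averaged 643 ± 93.4 CPM at 4 h and 878 ± 208 CPM at 0 h, and every refed fly lay below the fasted median (log2 change -0.44, adjusted p = 0.106, edgeR, n = 12 each). REPTOR averaged 47.0 ± 6.38 CPM at 4 h and 51.9 ± 5.02 CPM at 0 h, and Sesn, a TOR inhibitor, averaged 131 ± 14.2 CPM at 4 h and 126 ± 14.0 CPM at 0 h.

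Ribosome and translation genes had small median changes. Lower members at an unadjusted p under 0.05 made up 16.7% of ribosome biogenesis, 20.7% of translation factors and 5% of cytosolic ribosomal proteins. The share over all genes was 4.53%. Ribosome biogenesis had 6 lower members and 1 higher member of 36 at an unadjusted p under 0.05 (median log2 change -0.15), with 3 lower without the refed replicate 2 on food without DMSO and 10 without the refed replicate 3 on it. Cytosolic ribosomal proteins had 4 lower and 0 higher of 80 (median -0.02), with 2 lower without the fasted replicate 1 on 0.4% DMSO and 7 without the fasted replicate 3 on 0.2%. Their lowest p belonged to RpL41, at 1392 ± 200 CPM at 4 h and 1871 ± 449 CPM at 0 h (adjusted p = 0.111, edgeR, n = 12 each). Of 29 translation factors, 6 were lower and 0 higher (median -0.06). The initiation factor subunit eIF3c averaged 455 ± 37.9 CPM at 4 h and 535 ± 60.9 CPM at 0 h (SD, n = 12 each), and 10 of 12 refed flies lay below the lowest fasted one. Its log2 change was -0.23 (SE 0.07, adjusted p = 0.132, edgeR). Poly(A)-binding protein (pAbp) averaged 638 ± 93.8 CPM at 4 h and 803 ± 146 CPM at 0 h (SD, n = 12 each). Aminoacyl-tRNA synthetases had a median log2 change of 0.01 over 17 genes, and amino acid stress genes under ATF4 one of -0.11 over 18.

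Digestive genes varied widely between flies at both times. Among 17 amylases and maltases, 2 were lower and 1 higher at an unadjusted p under 0.05 (median log2 change -0.22). Over all genes 4.53% were lower and 11.4% higher. Amyrel, a sugar-repressed amylase relative, ran over 0, 3.35 and 31.4 CPM at 4 h, against 6.39, 14.0 and 51.4 CPM at 0 h. For Amyrel, 8 of 12 refed flies lay below the lowest fasted one, while the 2 highest refed flies, at 27.9 and 31.4 CPM, both on 0.1% DMSO, sat among the fasted ones. Its adjusted p was 0.195 (edgeR, log2 change -2.11, SE 0.78). The distal amylase Amy-d went the other way, at 1091 ± 471 CPM at 4 h and 740 ± 348 CPM at 0 h (adjusted p = 0.259, edgeR, n = 12 each). Gba1a, a glucocerebrosidase, had a median of 1.79 CPM at 4 h and 19.3 CPM at 0 h. Trypsins and chymotrypsins had 1 lower and 0 higher of 30 (median 0.08), and their summed level ran from 352 to 17184 CPM over the refed flies and from 1250 to 17486 CPM over the fasted ones. The lower one was thetaTry, with a median of 4.58 CPM at 4 h and 30.4 CPM at 0 h. The digestive lysozyme gene LysE averaged 5.69 ± 5.56 CPM at 4 h and 0.959 ± 1.12 CPM at 0 h (SD, n = 12 each). It belongs to a family of near-identical copies, so its counts are uncertain.

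Sugar sensing and fat synthesis showed no common direction. Sugar response regulators had 0 higher and 0 lower of 13 at an unadjusted p under 0.05, and the gene of the transcription factor sugarbabe (sug) averaged 22.7 ± 11.1 CPM at 4 h and 16.8 ± 13.3 CPM at 0 h. The glucosidase tobi averaged 683 ± 580 CPM at 4 h and 909 ± 685 CPM at 0 h. Of 20 genes of fatty acid and triglyceride synthesis, 3 were lower (15%, against 4.53% of all genes) and 0 higher (median log2 change 0.05). Fatty acid synthase FASN1 averaged 630 ± 216 CPM at 4 h and 560 ± 201 CPM at 0 h, and acetyl-CoA carboxylase ACC averaged 297 ± 129 CPM at 4 h and 325 ± 116 CPM at 0 h. The lower members were mino, bgm, a long-chain acyl-CoA synthetase, and the fatty acid desaturase Desat1, which averaged 599 ± 191 CPM at 4 h and 799 ± 221 CPM at 0 h (SD, n = 12 each for these genes). The 17 glycolysis genes had a median of 0.04. Nuclear subunits of oxidative phosphorylation moved by little but mostly one way. Of 64 tested, 63 had a positive log2 change, and the median was 0.22. At an unadjusted p under 0.05, 30 were higher (46.9%, against 11.4% of all genes) and 0 lower. Leaving out each fly gave 22 to 41 higher members, and 35 were higher without the 0 h fly that stood apart. ATPsynE, the epsilon subunit of ATP synthase, ran over 175, 242 and 314 CPM at 4 h, against 150, 192 and 263 CPM at 0 h (log2 change 0.33, adjusted p = 0.102, edgeR). The subunit genes share their libraries, so the count of positive members is a description.

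**Figure D2:**
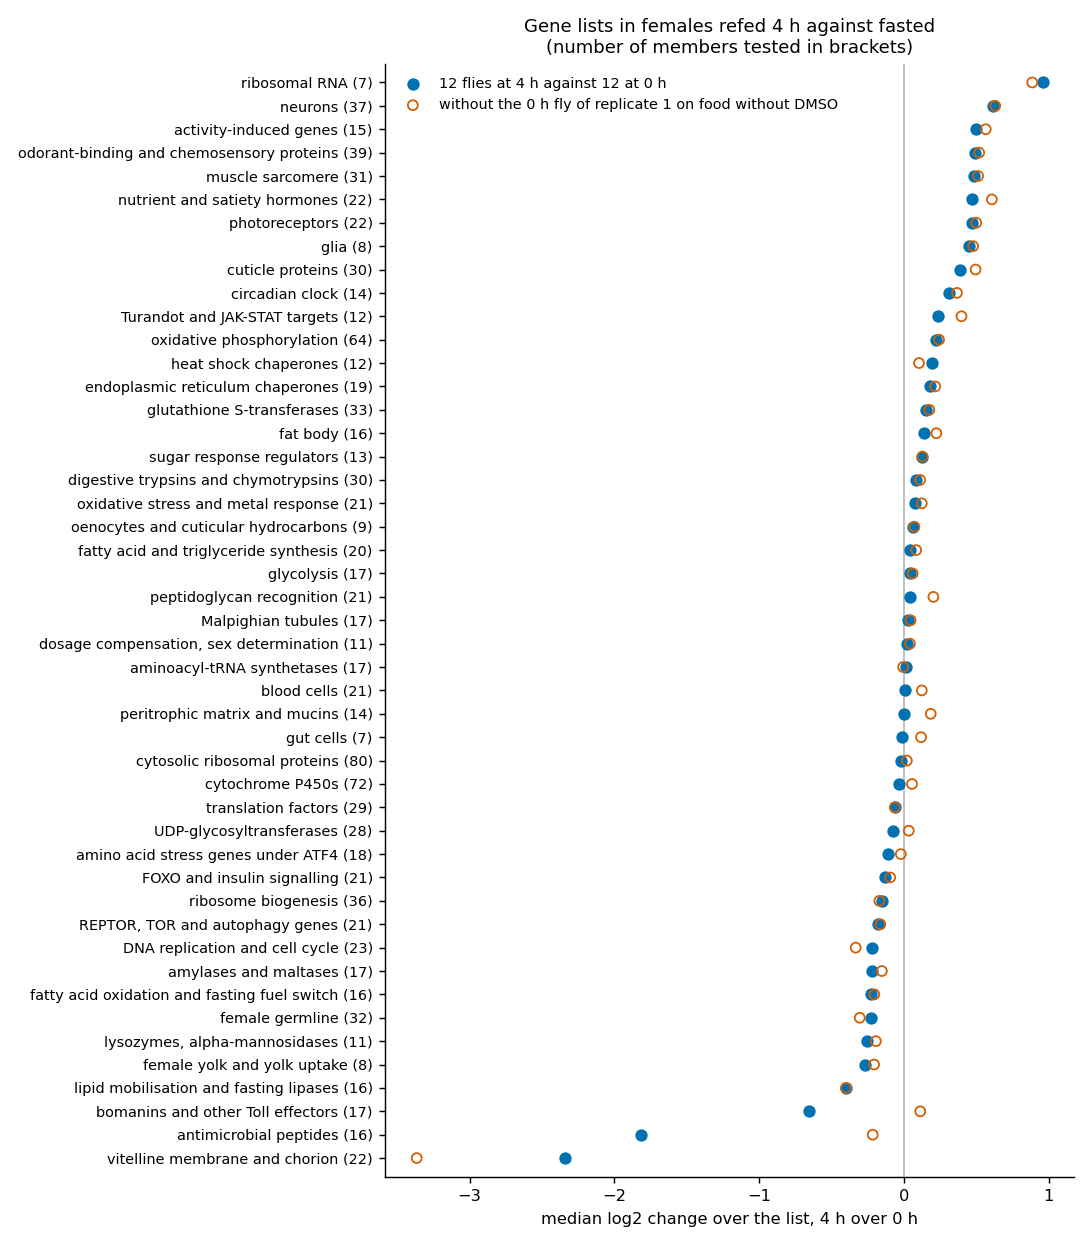
Median log2 change of females at 4 h against 0 h over the tested members of each gene list with at least 7 members (filled, 12 flies against 12; open, without the 0 h fly that stood apart). Nerve, eye and muscle lists lie to the right of 0 and fasting lipases to the left, while the antimicrobial peptide median is -1.82 with all flies and -0.22 without the one.

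Lists of nerve, eye and muscle genes had positive medians. Of 37 neuronal genes, 32 were higher and 0 lower at an unadjusted p under 0.05 (30 higher without the 0 h fly that stood apart), with a median log2 change of 0.62, against 11.4% of all genes higher. Leaving out each fly in turn gave 22 (without the fasted replicate 3 on 0.2% DMSO) to 36 higher members and medians of 0.54 to 0.69. Rdl, the GABA-gated chloride channel, ran over 15.1, 35.7 and 72.4 CPM at 4 h, against 6.86, 18.9 and 38.3 CPM at 0 h. For Rdl, 5 of 12 refed flies exceeded the highest fasted one and 11 exceeded the fasted median. Its log2 change was 0.91 (SE 0.24, adjusted p = 0.109, edgeR). Similar values came from nAChRalpha6, a nicotinic acetylcholine receptor subunit, at 17.0 ± 8.07 CPM at 4 h and 9.50 ± 4.21 CPM at 0 h, and from the potassium channel Shab at 78.4 ± 34 CPM at 4 h and 47.4 ± 16.9 CPM at 0 h (SD, n = 12 each). Summed over the list, neuronal transcripts ran over 939, 2014 and 4028 CPM at 4 h, against 840, 1367 and 2597 CPM at 0 h, and 3 refed flies exceeded all fasted ones.

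Photoreceptor genes had 11 of 22 higher and 0 lower (median log2 change 0.47), against 11.4% of all genes higher. Without the 0 h fly that stood apart 16 of the 22 were higher. On leaving out each fly, 9 (without the refed replicate 2 on food without DMSO) to 17 (without the refed replicate 1 on it) were higher. At most 1 was lower, without the refed replicate 2 on 0.1% DMSO. The major rhodopsin ninaE averaged 2598 ± 932 CPM at 4 h and 1812 ± 572 CPM at 0 h, and the phototransduction G protein Galphaq averaged 49.3 ± 17.1 CPM at 4 h and 32.7 ± 11.2 CPM at 0 h (SD, n = 12 each). Muscle sarcomere genes had 7 of 31 higher and 0 lower (median 0.48), and 9 higher without the 0 h fly that stood apart. That count depended on single flies: it was 1 without the 4 h fly on 0.4% DMSO with the highest muscle sum (replicate 2) and 14 without the 0 h fly on food without DMSO, replicate 3, while medians stayed between 0.30 and 0.56 without any one fly. The muscle LIM protein gene Mlp60A averaged 426 ± 137 CPM at 4 h and 298 ± 118 CPM at 0 h (SD, n = 12 each). All 8 glial genes had a positive log2 change, and 3 were higher (1 without the refed replicate 2 on 0.4% DMSO). Among the 3 was wrapper, a glial cell surface protein of the nerve cord, at 8.90 ± 2.43 CPM at 4 h and 5.82 ± 3.10 CPM at 0 h.

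Over all genes 11.4% were higher at an unadjusted p under 0.05. Neuropeptides and related hormones had 8 of 22 higher and 0 lower (median log2 change 0.47), and 13 higher without the 0 h fly that stood apart. They included Capa, which acts on the renal tubules, at 21.3 ± 8.46 CPM at 4 h and 13.2 ± 5.26 CPM at 0 h, and Hug, the hugin peptide that restrains feeding, at 8.75 ± 3.18 CPM at 4 h and 4.96 ± 2.61 CPM at 0 h (SD, n = 12 each). CCHa1, a gut and brain peptide, had a median of 3.31 CPM at 4 h and 1.57 CPM at 0 h, and 1 refed fly (0.2% DMSO, replicate 3) reached 24.4 CPM. Limostatin (Lst), a fasting hormone that lowers insulin release, went the other way, at 57.7 ± 27.6 CPM at 4 h and 89.6 ± 34.7 CPM at 0 h (adjusted p = 0.334, edgeR, n = 12 each), and every refed fly lay below the fasted median. The female satiety peptide fit averaged 40.6 ± 35.3 CPM at 4 h and 30.2 ± 52.7 CPM at 0 h, and Ilp6 averaged 15.9 ± 7.81 CPM at 4 h and 15.9 ± 6.27 CPM at 0 h. The cytokine gene upd2 was too low to test, with medians of 0.215 CPM at 4 h and 0 CPM at 0 h. Activity-induced genes had 5 of 15 higher (median 0.50), among them stj, a calcium channel subunit, and clock genes 5 of 14 (median 0.31). The clock activator Clk averaged 14.2 ± 4.85 CPM at 4 h and 10.0 ± 1.98 CPM at 0 h (SD, n = 12 each), and 8 refed flies exceeded the highest fasted one. Because clock time differs with the hours of feeding, neither can be told apart for these genes. Cuticle proteins had 9 of 30 higher and 0 lower (median 0.39), and odorant-binding and chemosensory proteins had 13 of 39 higher and 1 lower (median 0.49). Single flies moved these counts: clock genes had 7 without the 0 h fly that stood apart and 2 without the refed replicate 3 on 0.1% DMSO, cuticle proteins 5 without the refed replicate 1 on 0.2%, and odorant-binding proteins 7 without the fasted replicate 3 on 0.4% and 22 without the refed replicate 3 on 0.2%.

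Split by food, the nerve, eye and muscle lists were higher in each of the 3 foods with DMSO but not in the one without. The fasted flies had eaten none of these foods, so their level is a label only. Summed neuronal transcripts were 1776, 1592 and 2597 CPM in fasted flies labelled without DMSO, against a median of 1248 CPM in those labelled with it. In refed flies they were 1692, 2386 and 1387 CPM without DMSO, against a median of 2118 CPM with it. The part of the fasted flies in this split was not tested. In order of the DMSO level, none to 0.4%, median log2 changes of the neuronal list were -0.14, 0.72, 1.08 and 0.66 (3 flies against 3 at each level). For photoreceptors they were -0.13, 0.49, 0.98 and 0.58, and for muscle -0.36, 0.87, 0.78 and 0.53. Female germline genes had medians of 0.40, -0.46, -0.54 and -0.17. Oxidative phosphorylation had -0.03, 0.35, 0.28 and 0.27, and fasting lipases had -0.94, 0.06, -0.16 and -0.45. Tested directly, 0 of 9833 genes differed in their change between the 4 foods (edgeR, 3 interaction terms together). At an unadjusted p under 0.05, 235 did (2.39%), and DESeq2 called 2. Without the 0 h fly that stood apart 0 were called and 173 had an unadjusted p under 0.05. On the food without DMSO alone, 3 flies against 3, edgeR called 0 of 9328 genes, and 218 had an unadjusted p under 0.05 (2.34%).

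**Figure D3:**
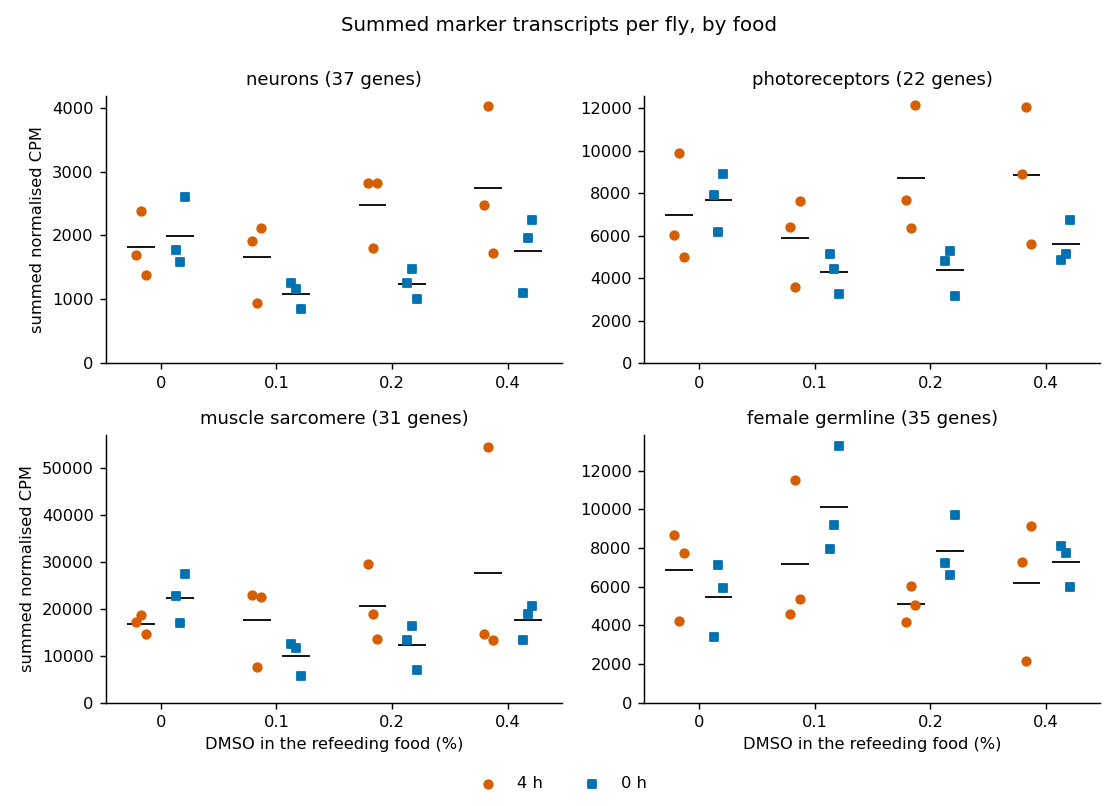
Summed CPM of neuronal, photoreceptor, muscle and female germline genes in each female, by DMSO level of the food, with 4 h flies (orange circles) left of 0 h flies (blue squares) and a line at the mean of 3. On the foods with DMSO the refed means of the nerve and eye sums lie above the fasted ones; the muscle sum reaches 54417 CPM in 1 refed fly on 0.4%.

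On the 3 foods with DMSO alone, 9 females against 9, 359 of 9730 genes were called (3.69%), 331 higher (3.4%) and 28 lower (0.288%), and at an unadjusted p under 0.05 the shares were 18.1% higher and 5.94% lower. The calls lay close to the threshold. Leaving out any 1 of the 18 flies gave between 0 and 1027 calls, with 0 in 9 of the 18 cases (refed replicates 1 and 3 on 0.1%, 1 on 0.2% and 2 on 0.4%, and fasted replicates 3 on 0.1%, all 3 on 0.2% and 2 on 0.4%). The most calls came without replicate 2 on 0.1% DMSO at 4 h (1027) and without replicate 3 on 0.4% at 4 h (985). In this subset the called members of the fixed lists numbered 52 higher and 2 lower. Neurons had 15 of 37 called, photoreceptors 5 of 22, hormones 5 of 22 and oxidative phosphorylation 5 of 64, all higher. Cuticle proteins had 3 of 27, activity-induced genes 3 of 15 and ribosomal RNA 4 of 7, all higher. Odorant-binding proteins had 2 of 39 and cytochrome P450s 2 of 70 higher, against 3.4% over all genes. Muscle (31 tested), glia (8), clock (14), FOXO (21), endoplasmic reticulum (19), fat body (16), gut (6) and accessory gland (2) lists had 1 higher each. Rdl ran over 15.1, 37.0 and 72.4 CPM at 4 h, against 6.86, 14.0 and 30.1 CPM at 0 h, with a log2 change of 1.27 (SE 0.27, adjusted p = 0.0364, edgeR). Also called, and chosen here after their values were seen, were the pan-neuronal RNA-binding protein gene elav (log2 change 1.05), the active zone scaffold brp (1.01), the synaptic vesicle protein nSyb (0.98) and the peptide genes Dh31 (1.06), Mip (1.15) and Dsk (0.82).

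Other calls on these foods were metabolic or cuticular. Cyp6a8 ran over 23.3, 35.9 and 69.6 CPM at 4 h, against 6.41, 16.8 and 23.0 CPM at 0 h, so that all 9 refed flies lay above every fasted one there (log2 change 1.51, SE 0.27, adjusted p = 0.0287, edgeR). ATPsynE had a log2 change of 0.45 and 8 of 9 refed flies above the fasted range, and Ilp2 one of 0.60 with 2 of 9 above it (adjusted p = 0.0368 and 0.0414, edgeR). The cuticle protein gene TwdlG had a median of 4.51 CPM at 4 h and 2.11 CPM at 0 h. Lsp1beta, a larval storage protein made in fat body, ran over 4.98, 34.2 and 454 CPM at 4 h, against 0.317, 4.63 and 19.8 CPM at 0 h. On food without DMSO, the fasted fly that stood apart had 97 CPM of it, more than the 57.5, 15.3 and 11.9 CPM of the refed ones there. Among the lower calls were mino (log2 change -0.41), mrva, Pdcd4 and Paip2, and the chorion gene Cp7Fa. Cp7Fa had a median of 0.272 CPM at 4 h and 5.69 CPM at 0 h on these foods. CG13084, Mur11Da and CG31926, chosen after their values were seen, had medians of 0 at 4 h and of 63, 6.57 and 14.1 CPM at 0 h, with fasted flies at 0 as well.

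On the foods with DMSO, 1 of 22 vitelline membrane and chorion genes was called lower (edgeR), and DESeq2 with all flies called 4 of 19 lower. With all flies in edgeR, no ovary gene list had a called member, as held for every list but that of the endoplasmic reticulum. For 32 female germline genes tested, 31 had a negative log2 change (median -0.23), 3 of them at an unadjusted p under 0.05 (5 without the 0 h fly that stood apart, 1 without the refed replicate 2 on food without DMSO), and all 23 replication and cell cycle genes had a negative one (median -0.22), with 0 at that level. The embryonic polarity gene osk averaged 353 ± 114 CPM at 4 h and 461 ± 72.3 CPM at 0 h, and the piRNA protein gene piwi averaged 93.7 ± 19.1 CPM at 4 h and 116 ± 26.7 CPM at 0 h (SD, n = 12 each; adjusted p = 0.251 and 0.226, edgeR). Summed germline transcripts ran over 2166, 5703 and 11531 CPM at 4 h, against 3388, 7479 and 13267 CPM at 0 h. For this sum, 1 of 12 refed females lay below the lowest fasted one and 4 lay above the fasted median. Nerve and muscle sums were high in the refed fly where the germline sum was lowest. Their part in the nerve, eye and muscle differences was not tested. Over all genes 4.53% were lower at an unadjusted p under 0.05, against 9.38% of the germline genes. Vitelline membrane and chorion genes, which the ovary uses in a short window of late egg development, had 6 lower (27.3%) and 0 higher of 22. Their median log2 change was -2.34, and -3.37 without the 0 h fly that stood apart. Without the fasted replicate 3 on food without DMSO 1 was lower. Their summed level ran over 83.7, 2348 and 9512 CPM at 4 h, against 506, 5139 and 16289 CPM at 0 h. For the eggshell gene yellow-g, 1 of 12 refed females had 389 CPM and the other 11 had 0.276 to 3.65 CPM, against 560, 426, 414 and 307 CPM in 4 of 12 fasted ones and 0.775 to 77.2 CPM in the other 8. Yolk genes did not separate the times. Yp1 averaged 5506 ± 3794 CPM at 4 h and 6648 ± 2980 CPM at 0 h, Yp2 2749 ± 2225 CPM at 4 h and 3083 ± 1734 CPM at 0 h, and Yp3 3346 ± 1785 CPM at 4 h and 3938 ± 1034 CPM at 0 h. LpR2, a lipoprotein receptor that loads lipid into eggs, ran over 117, 179 and 299 CPM at 4 h, against 121, 221 and 535 CPM at 0 h (adjusted p = 0.171, edgeR).

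Immune lists followed single flies. Antimicrobial peptides had 4 lower and 1 higher of 16 at an unadjusted p under 0.05 with all flies, against 4.53% and 11.4% of all genes. Without the 0 h fly that stood apart they had 0 lower and 2 higher. Without the refed replicate 3 on 0.2% DMSO 7 were lower, and the list median lay between -3.18 and -0.22 without any one fly. Bomanins, short peptides made under Toll signals, had a median log2 change of -0.66 with all flies and 0.11 without the 0 h fly that stood apart. Of 17 bomanins and other Toll effectors 1 was lower with all flies, and 9 were without the refed replicate 3 on 0.2%. One of them, BomS6, had a median of 50.5 CPM at 4 h and 76 CPM at 0 h (adjusted p = 0.208, edgeR). Cytochrome P450s had 5 higher (6.94%) and 2 lower (2.78%) of 72 (median -0.04), both below the shares over all genes. Glutathione S-transferases had 0 higher and 3 lower of 33 (9.09% lower), and UDP-glycosyltransferases 0 and 0 of 28. Without the 0 h fly that stood apart P450s had 8 higher and 1 lower, and glutathione S-transferases 1 higher and 0 lower. On leaving out each fly, P450s had 4 (without the refed replicate 2 on food without DMSO) to 10 higher members (without the refed replicate 3 on 0.2%). Lower P450s numbered 0 (without the refed replicate 1 on food without DMSO) to 5 (without the refed replicate 1 on 0.1%). Among P450s, Cyp4d21, also called sxe1, averaged 9.59 ± 3.88 CPM at 4 h and 4.55 ± 2.00 CPM at 0 h. Heat shock chaperones had 3 of 12 higher, led by Hsp67Bc, a small chaperone, with a median of 2.11 CPM at 4 h and 1.04 CPM at 0 h. Fat body, oenocyte, blood cell, gut and Malpighian tubule markers had medians between -0.02 and 0.14 and at most 2 members past an unadjusted p of 0.05 in either direction. Testis markers were nearly absent, with a summed level of 21.9 to 65.1 CPM at 4 h and 22.3 to 47.4 CPM at 0 h over 28 genes.

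Females at 4 h were next set directly against females fed for 2 h and for 8 h, without the fasted flies (12 against 12 each). Against 2 h, 0 of 9849 genes were called in edgeR, 478 passed an unadjusted p of 0.05 (4.85%), and DESeq2 called 13. Median standard error was 0.197, and intervals stayed inside 1 log2 unit for 85.5% of genes. Median levels of CG6277 were 4.05 CPM at 4 h and 0.0789 CPM at 2 h, those of Amyrel 3.52 CPM at 4 h and 0.186 CPM at 2 h, and those of bmm 76.6 CPM at 4 h and 54.1 CPM at 2 h, with adjusted p-values of 0.7 to 0.923 (edgeR). The median difference of the lipase list was 0.13 log2 units. Amylases and maltases had a median difference of 0.98 log2 units, with 4 of 17 higher at 4 h at an unadjusted p under 0.05. Over all genes 283 of 9849 were higher at that level.

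Against 8 h, 488 of 9688 genes were called (5.04%), 282 higher (2.91%) and 206 lower (2.13%) at 4 h. One 8 h library (0.4% DMSO, replicate 3) held male transcripts of several kinds. They included the accessory gland gene Acp53C14a (925 CPM), the testis gene Mst84Db (401 CPM) and the male dosage compensation RNA lncRNA:roX1 (188 CPM). That library had 13697 genes detected, against a median of 11059.5 over all 8 h females. Without it 3151 of 9852 genes were called (32%). The count was 0 without replicate 1 or without replicate 2 of every group, so it moved widely with the flies included. Of 80 cytosolic ribosomal proteins, 39 were higher at 4 h than at 8 h and 0 lower (median log2 difference 0.31), and 63 were higher without that library. Muscle had 4 of 31 higher, blood cells 4 of 20, photoreceptors 3 of 22 and neurons 1 of 37, against 2.91% of all genes. Without that library they had 20 of 31 (muscle), 9 of 22 (blood cells), 16 of 22 (photoreceptors) and 10 of 37 (neurons). Over all 9852 genes of that fit, 1570 were higher and 1581 lower at 4 h. Female germline genes had 2 of 32 lower at 4 h (16 without that library), and replication genes 0 of 23 (16 without it). The gene retinin, for a protein of the corneal lens coat, had median levels of 130 CPM at 4 h and 57.1 CPM at 8 h (log2 difference 1.18, adjusted p = 0.0221, edgeR). Nepl6, a neprilysin-like peptidase, had 12.6 CPM at 4 h and 4.50 CPM at 8 h. The kinase gene cdi was lower at 4 h, with 80.3 CPM against 116 CPM at 8 h (log2 difference -0.55, adjusted p = 0.0221, edgeR), as were Uhg3, a host gene of small nucleolar RNAs, PlexB, a semaphorin receptor, ssp3 and HSPC300.

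All 3 feeding times were also fitted together against the same 12 fasted females, which the 3 comparisons share. That fit of 48 libraries called 1373 of 10060 genes at 2 h (13.6%), 0 at 4 h (1615 at an unadjusted p under 0.05, 16.1%) and 361 at 8 h (3.59%). Median log2 changes of the neuronal list were 0.93, 0.65 and 0.01 at 2, 4 and 8 h. Those of muscle were 0.79, 0.52 and -0.24, and those of fasting lipases -0.96, -0.43 and -0.82. For Sec61beta the change was 0.44 at 2 h (adjusted p = 0.0092), 0.54 at 4 h (0.0577) and 0.26 at 8 h (0.156, edgeR). For bmm it was -1.05 at 2 h (adjusted p = 0.0001) and -0.58 at 8 h (0.0265, edgeR), and the direct test at 4 h is given above.

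**Figure D4:**
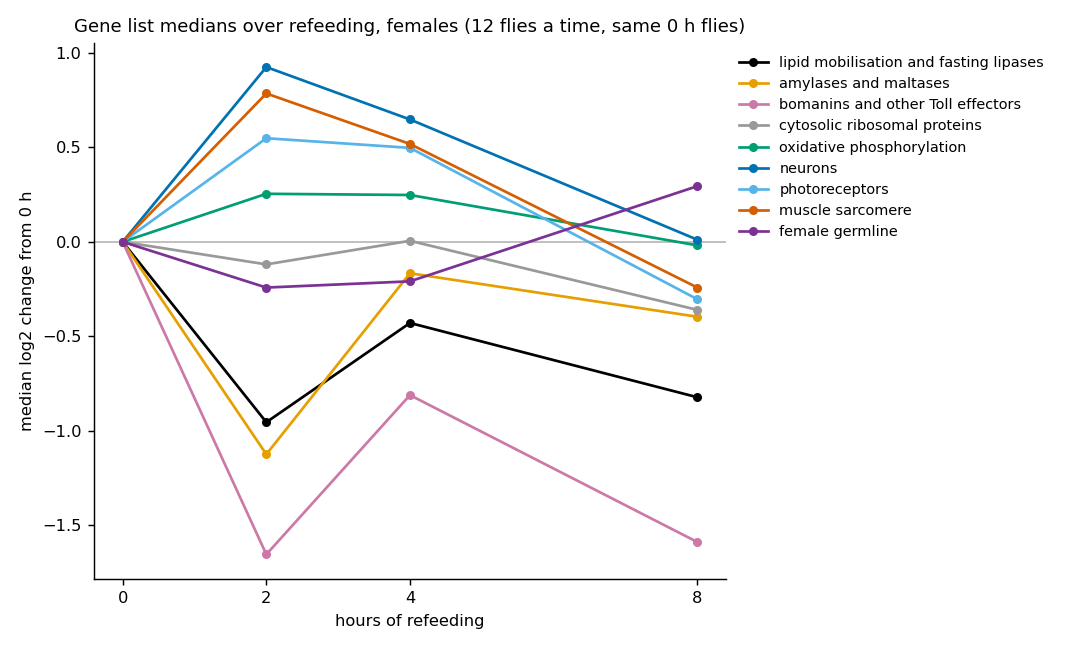
Median log2 change against the same fasted females of 9 gene lists after 2, 4 and 8 h of feeding (0 h set to 0), from the fit of 48 female libraries. Nerve, eye and muscle medians are above 0 at 2 and 4 h and near or below 0 at 8 h.

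Males on the 3 foods with DMSO, 9 at 4 h and 9 at 0 h, were used to ask whether the change differed between the sexes. Their DMSO libraries came from 1 other sequencing run. In males alone 4 of 12348 genes were called (0.0324%). The difference between the female and the male change was called for 3 of 12725 genes (0.0236%), 2 with a more positive (0.0157%) and 1 with a more negative change in females (0.00786%). At an unadjusted p under 0.05, 1300 genes had a more positive change in females (10.2%) and 563 a more negative one (4.42%). Among neuronal genes, 30 of 37 did so in the positive direction and 0 in the negative, and among muscle genes 23 of 31 and 0, but no member passed the adjusted test. Medians of the neuronal list were 0.93 in females and 0.01 in males, and those of fasting lipases -0.38 in females and -0.30 in males. Sec61beta had a log2 change of 0.53 in females and 0.65 in males (difference -0.17, SE 0.20, adjusted p = 0.701, edgeR). Rdl had 1.27 in females and 0.16 in males (difference 1.04, SE 0.28, adjusted p = 0.148, edgeR).

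**Figure D5:**
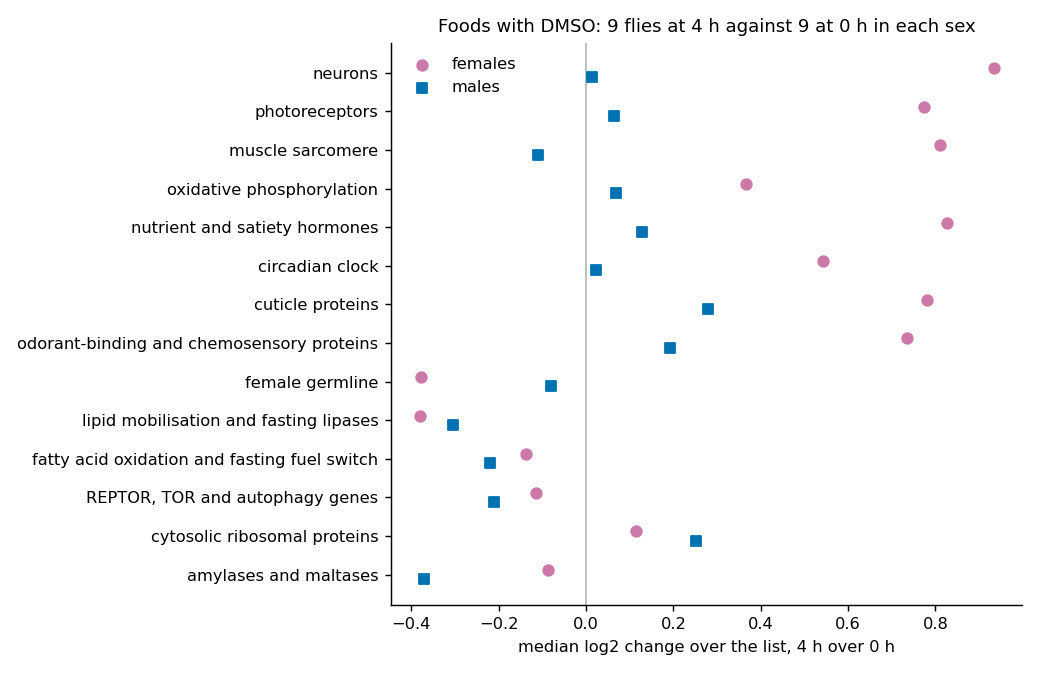
Median log2 change at 4 h against 0 h over 14 gene lists in females and males on the 3 foods with DMSO, 9 flies at each time in each sex. Neuronal, photoreceptor and muscle medians are 0.93, 0.77 and 0.81 in females, against 0.01, 0.06 and -0.11 in males.

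The spread among flies was somewhat wider after feeding. The common biological coefficient of variation within DMSO levels was 0.442 at 4 h (0.412 to 0.459 on leaving out each fly) and 0.352 at 0 h (0.305 to 0.367), a description with no test. Its lowest values came without replicate 2 on 0.4% DMSO at 4 h and without replicate 1 on food without DMSO at 0 h.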

How the data were processed

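The authors deposited raw counts of reads for every gene and library. The submitters' processing notes name HTSeq 0.6.1p1, TopHat2 2.1.0, STAR 2.4.2a, bcl2fastq 1.8 and CASAVA 1.8.2, without roles. No genome build is given, and no coordinates or sequences are printed. RNA of distant species was mixed in before libraries were made, per the labels' protocols. The 17370 FlyBase genes were used (17154 matched a symbol); 96 spike-ins and 5 summary lines stayed out of library sizes and tests. Reads left out because they overlapped more than 1 gene took 2.83 to 11.3% of all counts. The share of reads that align to several near-identical copies was not taken, and such copies are uncertain.

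Groups came from the titles. Members and 49 gene lists were chosen with earlier results of these data known. Tests used edgeR 4.0.16 (R 4.3.3; TMM, default expression filter, quasi-likelihood, Benjamini-Hochberg at 0.05) over all genes passing the filter; DESeq2 1.42.0 was an alternative. SE is the log2 change divided by the square root of F. Named were the 10 genes of smallest p per direction (mean of at least 5 CPM), the 3 of smallest p in each list, a fixed refeeding panel, and up to 5 per direction called against 2 h, 8 h or males. The main fit was tried on counts simulated with the same dispersion for all genes and no fly that stood apart. That trial does not show how the fit handles such flies. No 2 of 24 replicate pairs held identical values (smallest chi-square per degree of freedom 13.8). Replicates were separate flies. One male library titled 0 h is called 8 h in another label; the title was used.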

Additional observations from a re-analysis of the deposited data

Results flagged for a closer look

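The change between 4 h and 0 h on the foods with DMSO differed between females and males for 3 genes by the interaction of sex and time (edgeR, 9 flies per sex and time). Acp53C14a, a male accessory gland gene, had a female minus male difference of 5.54 log2 units (SE 0.75, adjusted p = 0.0027, edgeR). In the virgin females on 0.4% DMSO its levels were 7.18, 7.75 and 1.92 CPM after 4 h, and it was at 0 in every fasted female. It was also at 0.762 and 0.208 CPM after 4 h on 0.2% DMSO (replicates 1 and 3). After 2 h on 0.2%, it was at 3.3 CPM in replicate 3. At 8 h it was at 925 CPM in the 0.4% DMSO library that held male transcripts of several kinds, and at 5.53 and 3.00 CPM in the other 2 females on that food. The part of these transcripts in the difference was not tested. Another member of that family, Acp53C14b, had a difference of 2.79 (SE 0.45, adjusted p = 0.0033, edgeR), with at most 0.584 CPM in any fasted female. The antisense RNA asRNA:CR46138 had a difference of -3.54 (SE 0.67, adjusted p = 0.0369, edgeR). On the foods with DMSO it averaged 0.0699 CPM in refed and 0.87 CPM in fasted females (9 flies at each time), with highest levels of 0.352 CPM in refed and 2.64 CPM in fasted ones. With so few counts in females, the fitted size depends on the prior count, and none of the 3 was followed further. No sample of a single gene could be tested as standing apart within the groups of 3.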

How the results depend on the processing

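Calls at 4 h against 0 h stayed at 1 without a DMSO term, with DESeq2 size factors, with upper quartile scaling, with ribosomal RNA left out and with robust dispersion. They fell to 0 in the fit of 48 libraries, on food without DMSO alone (218 unadjusted), with no expression filter and with the replicate block, and came to 289 by DESeq2 and 359 on the foods with DMSO. Leaving out 1 fly or 1 replicate number gave 0 to 137 calls, the most without the refed replicate 3 on food without DMSO, then 32 without the fasted replicate 3 on it. The same counts of list members were 0 in the fit of 48 and with the replicate block. Against 2 h DESeq2 gave 13. Against 8 h DESeq2 gave 2634, no filter 3, the replicate block 0, and leaving out a replicate 0 to 3151. On the foods with DMSO, DESeq2 gave 954, no filter 135, the replicate block 0, and leaving out flies 0 to 1027. For the sex difference DESeq2 gave 64, DESeq2 size factors 5, and leaving out libraries 0 to 6. For the dependence on DMSO DESeq2 gave 2. The ratio of the spread at 4 h to that at 0 h was 1.26, and 1.17 to 1.45 without any 1 fly.

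On food without DMSO alone (3 flies against 3), 11 named genes had the opposite sign, as log2 changes: Capa -0.22, Gpo1 -0.087, Slob -0.026, piwi 0.033, Mlp60A -0.12, Rdl -0.028, Galphaq -0.087, ninaE -0.061, wrapper -0.33, Lsp1beta -0.39 and TwdlG -0.12. The cause was not tested.

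Of 12 pairs of flies that share a replicate number, 4 had correlated deviations above 0.1 (r from -0.59 to 0.40) and 4 correlated best with their own number, so the numbers were not read as pairs. The alternatives on the foods with DMSO, apart from the subset itself, and the one without a shallow male library were chosen after seeing the data. Depth limits genes near 3 counts, such as Lip3, Acp53C14a and upd2.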
